A study of Mus musculus with 6 samples.

Results

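Polycomb repressive complex 2 (PRC2) was followed through the RNA of its 10 subunit genes, Ezh1, Ezh2, Eed, Suz12, Rbbp4, Rbbp7, Jarid2, Mtf2, Phf1 and Phf19, in sorted bone marrow cells of wild-type (WT) and NHD13 mice. The genes were chosen by symbol, as the core and accessory subunits, and all 10 had a row among the 17523 genes of the raw count table. All 10 passed the filter on low counts, with between 205 and 6798 counts per gene and library. The groups were 3 WT and 3 NHD13 libraries from C57BL/6 mice. NHD13 mice express NUP98-HOXD13, in which part of a nuclear pore protein is joined to a homeodomain, and model myelodysplastic syndrome. In the published line a Vav promoter drives the fusion in blood cells; the labels give neither the promoter nor the age of the mice, the surface markers of the sort or whether the replicates came from separate animals, so p-values measure only the spread between these libraries.

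PRC2 adds methyl groups to lysine 27 of histone H3, a mark of silenced genes. EZH2 or its paralog EZH1 carries the catalytic site and works only together with EED, which binds the finished mark, and SUZ12, which holds the complex together, while the histone chaperones RBBP4 and RBBP7 complete the core. Accessory subunits give the complex 2 forms, one with a Polycomb-like protein (MTF2, PHF1 or PHF19) and one with JARID2 and AEBP2. The Hox clusters are the classic loci that PRC2 keeps silent, and in blood cells EZH2 is best known from dividing progenitors and EZH1 from resting cells. Loss of EZH2 is a recurrent lesion of human myelodysplastic syndrome.

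The row of the fusion held 0 counts in each WT library and 167 to 185 in the NHD13 libraries, which fits the labels. Library totals ran from 12541538 to 14388772 counts. NHD13 replicate 1 stood apart from the other NHD13 libraries (chi-square per degree of freedom 25.3 and 25.6 against 3.23 between replicates 2 and 3), so results are also given without it. By this measure it was nearer to WT replicate 1 (18.5) than to NHD13 replicates 2 and 3. It was farther from WT replicates 2 and 3 (39.1 and 32.1). WT replicate 1 also differed more from the other WT libraries (at least 6.95) than those did from each other (4.36). The series names the cells hematopoietic stem cells. CPM below are counts scaled to a common library size by TMM. At an adjusted p under 0.05 in edgeR, 15.0% of all tested genes rose and 15.3% fell, which is the background for the marker counts here. Of 9 tested stem cell markers 1 rose (Mecom) and 4 fell (Hlf, Tek, Gata2 and Ly6a). The 12 listed summed to 332 to 360 CPM in WT and 281 to 306 CPM in NHD13. Most of that was the receptor gene Kit (254 CPM in WT), while Slamf1 (1.07 CPM) and Procr (0.350 CPM) were near the detection limit. The 10 genes of maturing neutrophils took 3.32% to 5.05% of the WT counts and 2.22% to 3.12% of the NHD13 counts. All 7 monocyte, all 6 dendritic cell and all 5 basophil and mast cell markers fell, from 3301 to 5168, 99.1 to 160 and 223 to 527 CPM in WT to 1844 to 2214, 10.6 to 16.6 and 18.0 to 38.9 CPM in NHD13. Of the lymphoid markers, 3 of 5 tested B cell genes fell and 0 of 3 tested T cell genes passed. Some low markers entered the test through their WT counts alone, and the filter favours a fall in such genes. Fcer1a of the basophil list had 503 counts over the WT libraries and 2 over the NHD13 libraries. No listed marker with a row was at 0 counts in all libraries. In bulk RNA a change in the number of cells of a type and a change in RNA per cell cannot be told apart.

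The PRC2 genes stayed close to their WT levels. At an adjusted p under 0.05 in edgeR's quasi-likelihood test, Ezh2 alone rose and Phf19 alone fell, and 8 of the 10 genes did not pass. That is 1 higher gene against 15.0% of all 12013 tested genes, and 1 lower gene against 15.3%. In both directions together 30.3% of all tested genes passed, so the share of PRC2 genes that passed, 2 of 10, was not above the background. The log2 changes ran from -0.28 to 0.20 with a median of 0.03, against a median of 0.00 over all tested genes. In absolute size their median was 0.14, against 0.22 over all tested genes, and 40.5% of all tested genes changed by more than the PRC2 gene with the largest change. The standard errors, 0.06 to 0.13, were small (median 0.07, against 0.11 over all tested genes). No 95% interval of a PRC2 gene reached below 0.715-fold or above 1.28-fold of the WT level. The groups did not overlap for 5 of the 10 genes, Ezh2, Eed, Rbbp7, Jarid2 and Phf19, and for 46.1% of all tested genes. Summed over the 10 genes, the libraries held 1671, 1613 and 1675 CPM in WT replicates 1 to 3 and 1717, 1709 and 1741 CPM in NHD13 replicates 1 to 3.

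**Figure D1:**
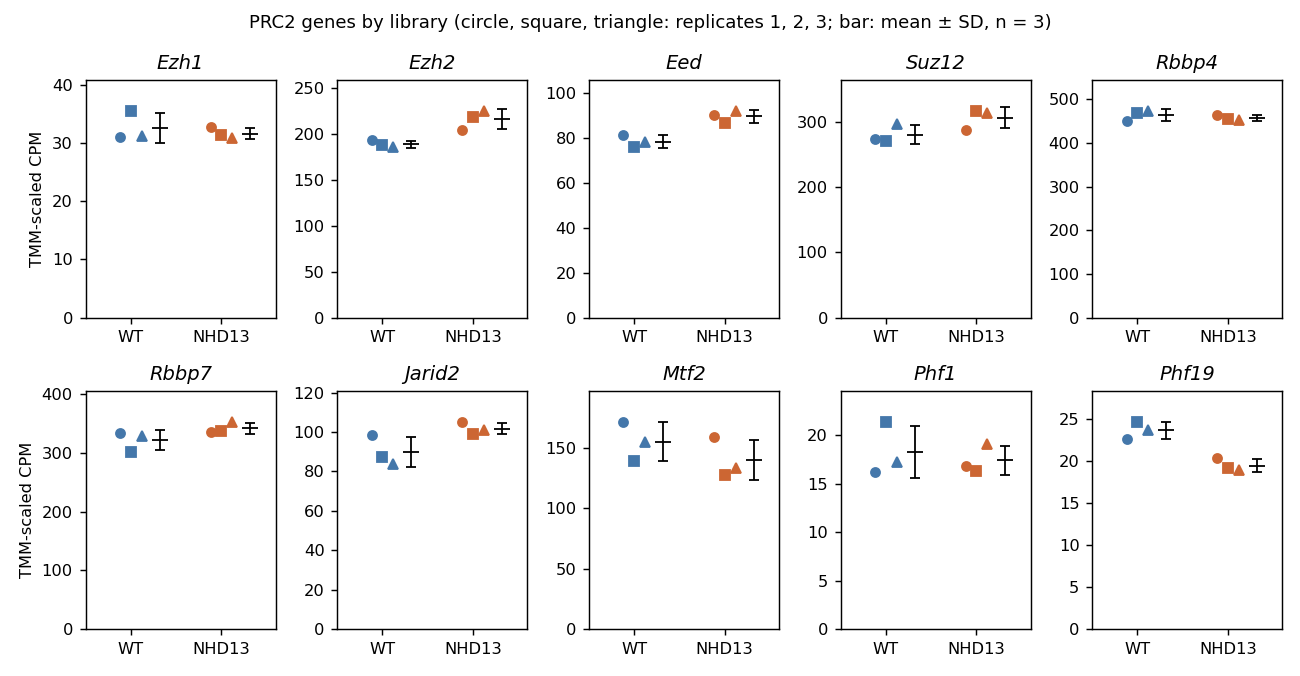
TMM-scaled CPM of the 10 PRC2 genes (vertical axes from 0) in 3 WT (blue) and 3 NHD13 (orange) libraries; symbols are replicates 1 to 3 and bars the mean ± SD. The groups lie at nearly the same height in every panel, with NHD13 wholly above WT for Ezh2, Eed, Rbbp7 and Jarid2 and wholly below it for Phf19.

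Ezh2, the main methyltransferase of dividing cells, was at 193, 188 and 186 CPM in WT replicates 1 to 3 and at 205, 219 and 225 CPM in NHD13 replicates 1 to 3. All NHD13 libraries were above all WT libraries, and NHD13 replicate 1 was the nearest to WT. The rise from 189 CPM ± 3.75 to 216 CPM ± 10.5 (SD, n = 3 each) was 14.5% (95% interval 3.96% to 26.2%; log2 0.20, SE 0.06, edgeR adjusted p = 0.0414). Ezh2 (chromosome 6, 47530139 to 47595341, mm10) overlaps the noncoding gene Gm26625 on the other strand over 174 bp of exon. Its paralog Ezh1 (chromosome 11, 101191115 to 101226463) was at 31.1, 35.5 and 31.2 CPM in WT and at 32.7, 31.3 and 30.8 CPM in NHD13. These ranges overlapped, and the difference of -2.99% had an interval of -15.2% to 10.9% (log2 -0.04, SE 0.09, edgeR adjusted p = 0.724).

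The call of Ezh2 was narrow. Its log2 change stayed between 0.15 and 0.25 in all 15 alternative analyses, but its adjusted p ranged from 0.00116 to 0.289. Dropping a WT library ended the call, with adjusted p values of 0.0797, 0.109 and 0.141 as replicates 1, 2 and 3 were removed in turn. Dropping NHD13 replicate 2 or 3 ended it as well (adjusted p = 0.153 and 0.184). Genes of DNA replication and the G1-S transition, many of them controlled by E2F factors as Ezh2 and Eed are known to be, were read in the same libraries. Of 30 such genes 9 rose and 0 fell (14 and 0 at an unadjusted p under 0.05), where 15.0% of all tested genes rose and 15.3% fell, and their summed level was 6409, 6838 and 7047 CPM in WT replicates 1 to 3 and 6979, 8691 and 8473 CPM in NHD13 replicates 1 to 3. Thus NHD13 replicate 1, the lowest NHD13 library for Ezh2, lay within the WT range of this sum. Red cell genes moved as well: the transcription factor gene Klf1 (log2 1.19), the receptor gene Epor (1.25) and the transferrin receptor gene Tfrc (0.66) rose, while 8 of the 10 neutrophil markers fell. The part of these shifts in the change of Ezh2 was not tested.

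The start regions of Ezh2, Suz12 and Phf19 were the only ones among the 10 genes to hold an E2F-type motif, and they are printed because they include both genes that passed the test. The windows are RefSeq sequences of GRCm38.p6, from 250 bases before to 50 bases after an annotated start, 12 in all for the 10 genes. The motifs searched on both strands were TTTCCCGC, TTTGGCGC, TTTCGCGC and TTTGCCGC, and capitals mark the match, which begins at base 254, 32 and 43 of the window in Ezh2, Suz12 and Phf19.
Ezh2: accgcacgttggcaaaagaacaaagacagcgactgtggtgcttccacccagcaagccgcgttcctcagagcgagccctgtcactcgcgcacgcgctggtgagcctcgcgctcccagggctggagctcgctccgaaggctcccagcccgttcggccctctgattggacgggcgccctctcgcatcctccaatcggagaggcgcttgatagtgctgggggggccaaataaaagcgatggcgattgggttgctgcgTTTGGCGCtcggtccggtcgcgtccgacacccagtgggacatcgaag
Suz12: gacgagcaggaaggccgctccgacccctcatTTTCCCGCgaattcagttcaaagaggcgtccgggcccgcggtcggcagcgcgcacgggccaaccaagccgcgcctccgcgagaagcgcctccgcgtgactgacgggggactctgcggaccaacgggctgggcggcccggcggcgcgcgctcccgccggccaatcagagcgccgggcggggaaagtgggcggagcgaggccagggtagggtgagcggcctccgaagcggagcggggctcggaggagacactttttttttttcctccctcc
Phf19: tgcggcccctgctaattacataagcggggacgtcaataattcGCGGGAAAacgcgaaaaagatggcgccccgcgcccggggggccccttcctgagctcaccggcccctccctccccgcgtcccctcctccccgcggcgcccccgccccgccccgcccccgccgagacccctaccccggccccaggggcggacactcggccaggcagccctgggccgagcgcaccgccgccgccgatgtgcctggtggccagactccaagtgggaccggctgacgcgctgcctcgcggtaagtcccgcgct

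The Ezh2 window lies at chr6:47594981-47595280 on the minus strand, the Suz12 window at chr11:79992856-79993155 on the plus strand and the Phf19 window at chr2:34913927-34914226 on the minus strand. In Phf19 the match is on the strand opposite to the one printed. No match overlapped another one. The motif was in 3 of 12 windows of the PRC2 genes, in 10 of 27 windows of the replication genes, in 0 of 29 windows of PRC1 genes, in 3.99% of the 11447 windows of tested genes and in 2.26% of all 32851 windows. Of the genes with a match, Ezh2 rose, Phf19 fell and Suz12 did not pass. The part of the motif in these changes was not tested. Most of these windows were rich in CpG, with 17 to 41 CpG in all but the second Mtf2 window (2), against a median of 7 over all windows.

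Eed, the subunit that reads the methyl mark, changed by nearly the same proportion as Ezh2 and narrowly missed the threshold. Eed (chromosome 7, 89954654 to 89980983) was at 81.1, 75.6 and 78.0 CPM in WT and at 89.9, 86.4 and 91.9 CPM in NHD13. The groups did not overlap, and the difference of 14.3% had an interval of 3.27% to 26.5% (log2 0.19, SE 0.06, edgeR adjusted p = 0.0513). Suz12, the scaffold subunit (chromosome 11, 79993106 to 80034123), was at 274, 271 and 298 CPM in WT and at 289, 318 and 315 CPM in NHD13. Here NHD13 replicate 1 lay below WT replicate 3, and the difference of 9.32% (interval -1.68% to 21.5%) did not pass (log2 0.13, SE 0.07, edgeR adjusted p = 0.178).

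The histone chaperones were the most abundant of the 10 by count and had some of the smallest changes. Rbbp4 (chromosome 4, 129307100 to 129335370) was at 449, 468 and 474 CPM in WT and at 464, 455 and 453 CPM in NHD13. The NHD13 values lay within the WT range, and the difference of -1.40% had the narrowest interval of the 10 genes, -9.63% to 7.58% (edgeR adjusted p = 0.805). Its exons share 1578 bp with Sync and Gm26722 on the other strand, so the reads of that stretch are uncertain. Rbbp7 (chromosome X, 162760402 to 162779092) was at 334, 302 and 329 CPM in WT and at 336, 338 and 353 CPM in NHD13, separated by a narrow gap between WT replicate 1 and NHD13 replicate 1. Its difference of 6.21% (interval -3.80% to 17.3%) did not pass (edgeR adjusted p = 0.317). As an X-linked gene it was measured in libraries that were mixed in sex-linked RNA: Xist was at 463 to 1078 CPM in WT and at 2.55, 1.95 and 683 CPM in NHD13 replicates 1 to 3. Its part in the Rbbp7 values was not tested.

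Jarid2, the accessory subunit that helps recruit and stimulate the enzyme (chromosome 13, 44729474 to 44921643), was at 98.3, 87.3 and 83.8 CPM in WT and at 105, 99.2 and 101 CPM in NHD13. All NHD13 libraries were above all WT libraries by a small margin, since WT replicate 1 nearly reached NHD13 replicate 2. The difference was 13.4% (interval 0.494% to 27.9%; log2 0.18, SE 0.08), and it did not pass (edgeR adjusted p = 0.104).

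The Polycomb-like genes, whose proteins bind unmethylated CpG-rich DNA and methylated lysine 36 of histone H3, had lower mean levels in NHD13, and 1 of 3 passed. Phf19 (chromosome 2, 34893757 to 34914026) was at 22.6, 24.6 and 23.7 CPM in WT and at 20.3, 19.1 and 18.9 CPM in NHD13. All NHD13 libraries were below all WT libraries. The fall from 23.6 CPM ± 1.02 to 19.5 CPM ± 0.753 (SD, n = 3 each) was 1.22-fold, a change of -17.7% (interval -28.5% to -5.39%; log2 -0.28, SE 0.09, edgeR adjusted p = 0.0420). Its log2 change was -0.34 to -0.25 in the 15 alternatives, with adjusted p from 0.00777 to 0.367. This call too ended when any library except NHD13 replicate 1 was dropped, at adjusted p values of 0.0536, 0.128 and 0.121 for WT replicates 1, 2 and 3 and of 0.124 and 0.136 for NHD13 replicates 2 and 3. DESeq2 did not make the call (adjusted p = 0.0916).

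Mtf2, the Polycomb-like gene with the highest counts (chromosome 5, 108065674 to 108109004), varied more between libraries than between groups, at 171, 139 and 155 CPM in WT and at 159, 128 and 133 CPM in NHD13. The ranges overlapped widely (difference -9.77%, interval -23.4% to 6.34%, edgeR adjusted p = 0.305). Phf1 (chromosome 17, 26933052 to 26937908) was at 16.2, 21.4 and 17.3 CPM in WT and at 16.8, 16.3 and 19.1 CPM in NHD13. It had the widest interval of the 10 genes on the log2 scale, -0.37 to 0.23 (log2 -0.07, SE 0.13, edgeR adjusted p = 0.716). Phf1 is also the least certain by annotation, since 1370 bp of its 3486 bp of exon overlap Cuta on the other strand. Eed, Suz12, Rbbp7 and Mtf2 share between 174 and 395 bp of exon with neighbours on the other strand, and Ezh1, Phf19 and Jarid2 share 0.

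**Figure D2:**
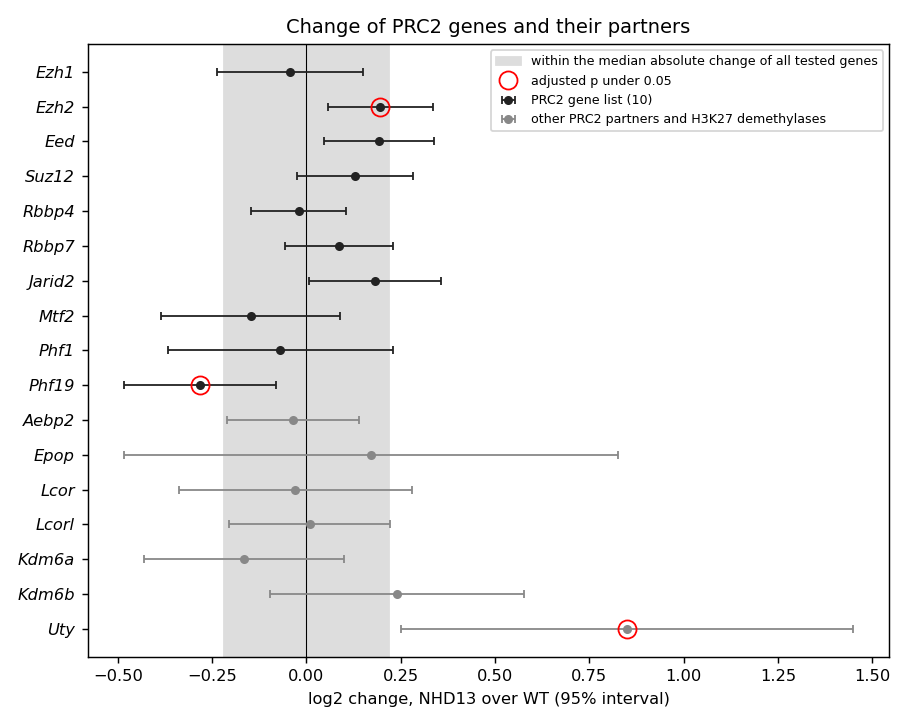
Log2 change of NHD13 over WT with its 95% interval for the 10 PRC2 genes (black), other PRC2 partners and the H3K27 demethylase genes (grey); red rings mark an adjusted p under 0.05 and the band spans the median absolute change of all tested genes, 0.22 either way. Ezh2 (0.20), Phf19 (-0.28) and the Y-linked gene Uty (0.85) are ringed, and 9 of the 10 PRC2 genes lie inside the band.

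Without NHD13 replicate 1 more of these genes passed: 3 PRC2 genes rose, Ezh2 (log2 0.24, adjusted p = 0.00287), Eed (log2 0.19, adjusted p = 0.0280) and Suz12 (log2 0.18, adjusted p = 0.0237), and 2 fell, Mtf2 (log2 -0.24, adjusted p = 0.0258) and Phf19 (log2 -0.31, adjusted p = 0.0160). In that fit 48.7% of all tested genes passed, so 5 of 10 was again near the background. Leaving out any other single library gave 0 PRC2 genes past the threshold in edgeR, with 14.7% to 23.1% of all tested genes past it and 1 to 4 of the PRC2 genes at an unadjusted p under 0.05.

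Per kilobase of exon, which allows genes to be compared, Rbbp7 was highest in WT at 111 CPM per kb ± 5.93, followed by Suz12 (56.8 ± 2.97), Rbbp4 (53.0 ± 1.48), Ezh2 (28.3 ± 0.561), Mtf2 (27.2 ± 2.83), Eed (20.4 ± 0.716), Jarid2 (9.24 ± 0.780), Phf1 (5.25 ± 0.781), Phf19 (4.69 ± 0.202) and Ezh1 (4.38 ± 0.342; SD, n = 3 each). Neighbours whose WT libraries overlapped were Ezh2 with Mtf2, Phf1 with Phf19 and Phf19 with Ezh1. In NHD13 the order was the same except that Ezh1 (4.25 CPM per kb) stood above Phf19 (3.86), without overlap. The only neighbours whose NHD13 libraries overlapped were Mtf2 and Eed. The length was that of all annotated exons of a gene together. With the longest coding transcript instead, Rbbp7 stayed first and Rbbp4, Ezh2 and Suz12 followed. Ezh1 then stood above Phf1 and Phf19 in both groups, and Eed stood above Mtf2 in NHD13. The order among the upper and the lower genes thus depends on the length used.

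**Figure D3:**
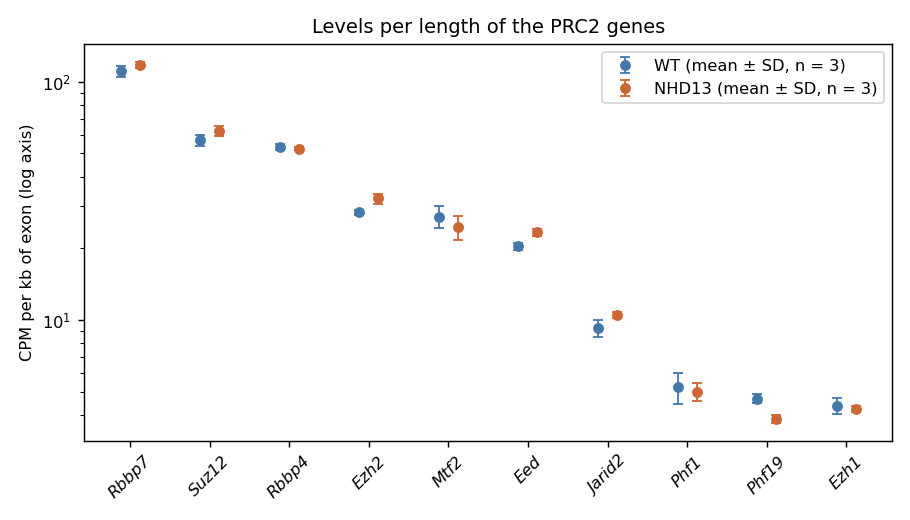
Level per kilobase of exon (logarithmic axis) of the PRC2 genes in WT (blue) and NHD13 (orange), mean ± SD over 3 libraries. Rbbp7 is at the top with 111 and 118 CPM per kb, and Phf1, Phf19 and Ezh1 lie together between 3.86 and 5.25.

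Ezh2 RNA outweighed Ezh1 RNA in both groups. Per length the ratio of Ezh2 to Ezh1 was 6.92, 5.90 and 6.63 in WT replicates 1 to 3 and 6.98, 7.78 and 8.14 in NHD13 replicates 1 to 3, so that Ezh2 made up 86.6% ± 0.972 and 88.4% ± 0.825 of the pair (SD, n = 3 each). The NHD13 values were all higher, although NHD13 replicate 1 barely exceeded WT replicate 1. These ratios and shares use exon length. By the longest coding transcript, Ezh2 and Ezh1 were at 67.7 and 7.74 CPM per kb in WT. In NHD13 they were at 77.6 and 7.51, so the ratio was larger in both groups by that length. The log2 ratio of counts differed by 0.24 between the groups (exact two-sided permutation p = 0.10, the smallest that 3 against 3 libraries can give; 0.20 after Benjamini-Hochberg adjustment over 4 ratios). It was between 0.17 and 0.30 when any 1 library was left out.

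A ratio of the accessory genes of the 2 forms of PRC2 did not overlap between the groups either. Counts of Jarid2 and Aebp2 together, divided by those of Mtf2, Phf1 and Phf19, gave 0.980, 1.01 and 0.982 in WT and 1.10, 1.19 and 1.18 in NHD13. These are ratios of counts not divided by length, so a value near 1 does not mean equal amounts of the 2 forms. Of the genes in the ratio only Phf19 passed on its own. The libraries of each group lay close together and the groups did not overlap. For the CPM of single genes that was so in 46.1% of all tested genes, and no such share was taken over ratios. The difference was 0.23 on the log2 scale (1.17-fold, exact permutation p = 0.10, adjusted 0.20), and it kept a size of 0.21 to 0.26 when any 1 library was left out. The Rbbp4 to Rbbp7 ratio (1.34, 1.55 and 1.44 in WT, 1.38, 1.35 and 1.28 in NHD13) and the Phf19 to Mtf2 ratio (0.132, 0.177 and 0.153 in WT, 0.128, 0.150 and 0.142 in NHD13) overlapped between groups (exact permutation p = 0.30 and 0.40, both 0.40 adjusted).

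**Figure D4:**
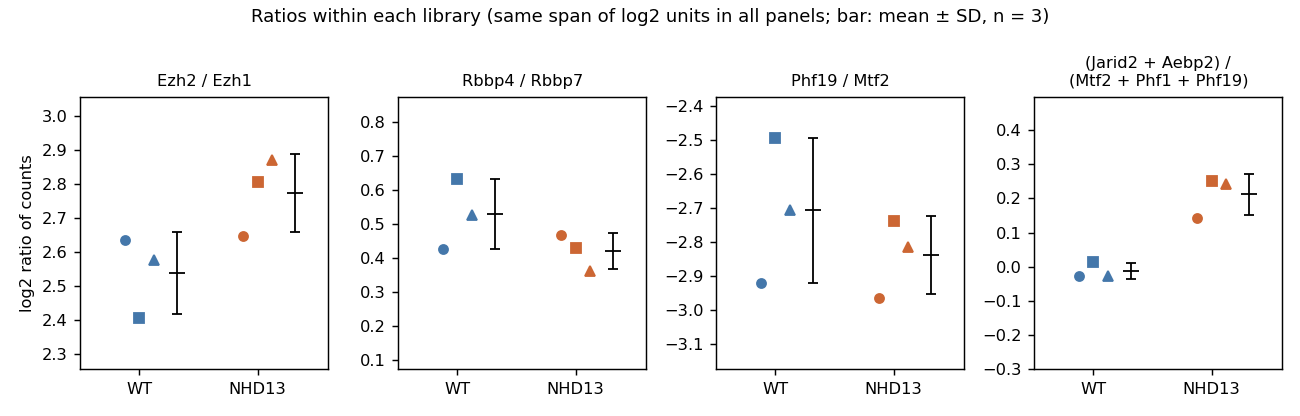
Log2 ratio of counts within each library for 3 pairs of paralogs and for the accessory subunits of the 2 forms of PRC2, in WT (blue) and NHD13 (orange); symbols are replicates 1 to 3, bars the mean ± SD, and all panels span the same number of log2 units. NHD13 lies above WT without overlap for Ezh2 over Ezh1 (difference 0.24) and for Jarid2 plus Aebp2 over the Polycomb-like genes (0.23).

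Other partners of PRC2 did not pass the test (0 of 4 tested in edgeR, and 0 at an unadjusted p under 0.05). Aebp2, the partner of JARID2, was at 108, 99.5 and 108 CPM in WT and 111, 95.2 and 101 CPM in NHD13 (log2 -0.04, interval -0.21 to 0.14). Lcor, which encodes the PRC2 partner PALI1, and its relative Lcorl had log2 changes of -0.03 and 0.01. Epop, a partner of the Polycomb-like form found under an older symbol, was low (3.13 to 7.35 CPM), and its interval of -0.48 to 0.83 was wide. Ezhip, an inhibitor of the enzyme, was not analysed here. Of the genes of the opposite reaction, the H3K27 demethylases Kdm6a and Kdm6b did not pass (log2 -0.16, SE 0.12, edgeR adjusted p = 0.308, and log2 0.24, SE 0.15, edgeR adjusted p = 0.248). The X-linked Kdm6a was at 80.7 to 91.9 CPM in WT and at 65.9, 71.1 and 89.6 CPM in NHD13 replicates 1 to 3. Xist was at 2.55, 1.95 and 683 CPM in those NHD13 libraries, and its part in the Kdm6a values was not tested. The Y-linked copy Uty rose with overlapping libraries (12.7 to 28.3 CPM in WT, 27.9 to 37.7 CPM in NHD13, log2 0.85, edgeR adjusted p = 0.0397). It was 1 of 3 Y-linked genes that rose, with Eif2s3y and Kdm5d, and the 4 tested, Ddx3y included, summed to 110 to 192 CPM in WT and 176 to 280 CPM in NHD13.

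Genes of PRC1, which ubiquitinates histone H2A and in some of its forms binds the mark PRC2 makes, gave 4 higher and 1 lower of 26 tested. Their median log2 change was 0.11. The higher share was near the 15.0% of all tested genes, and 15.3% of all tested genes were lower. The higher ones were Pcgf6 (log2 0.50), E2f6 (0.43), L3mbtl2 (0.35) and Bmi1 (0.23), which supports self-renewal of blood stem cells, and the lower one was Pcgf2 (-0.77), a paralog of Bmi1. The complexes that share RBBP4 and RBBP7 with PRC2, namely NuRD, SIN3 and CAF-1, had 6 higher and 1 lower of 19 (median log2 0.16), against the same 15.0% and 15.3% of all tested genes. Among them the NuRD subunits Mta2, Mta3 and Mta1 rose (log2 0.30, 0.50 and 0.31), as did Gatad2a (0.27), and the lower gene was Sap30 of SIN3 (-0.31). Mitosis genes had 2 higher and 1 lower of 23 (median 0.14), below these shares in both directions, namely Plk1 (0.36) and Ccnb1 (0.38) against Kif23 (-0.26). In the replication list, whose median was 0.20, the lowest p-values were those of Ccne1 (0.87), Cdt1 (0.43), Cdc6 (0.57) and Fen1 (0.34).

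**Figure D5:**
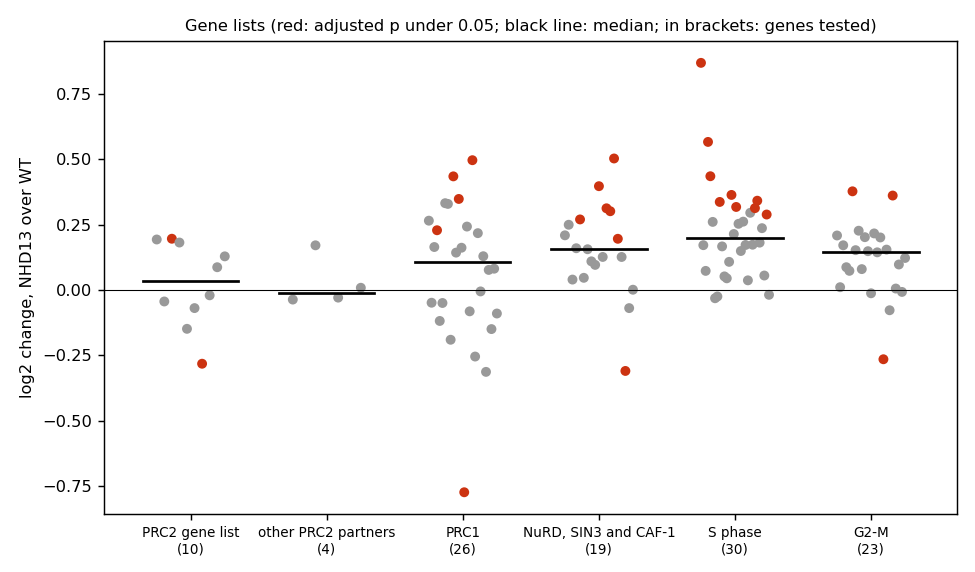
Log2 change of NHD13 over WT for each tested gene of the PRC2 list and 5 related lists; red points passed an adjusted p of 0.05 and black lines are medians. The PRC2 genes have a median of 0.03. Their range is narrower than that of the PRC1, NuRD, SIN3 and CAF-1, and replication lists, which hold more genes and have medians of 0.11, 0.16 and 0.20. The other PRC2 partners, with 4 genes tested, have a narrower range still.

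The Hox genes moved on another scale in the same libraries. Their summed level was 23.3, 26.1 and 22.1 CPM in WT replicates 1 to 3 and 169, 175 and 182 CPM in NHD13 replicates 1 to 3, with no overlap and with NHD13 replicate 1 close to the others. Of 19 tested Hox genes 18 rose, where 15.0% of all tested genes rose, and Hoxb4 did not pass. However, most of them entered the test through their NHD13 counts alone. A gene low in WT is tested only if it is high in NHD13, so the 15.0% is not a fair background for them. Hoxc5 had 2 counts over the WT libraries and 718 over the NHD13 libraries, and Hoxc6 had 4 and 434. Among tested Hox genes counted in both groups were Hoxa9 (log2 2.66) and Hoxa7 (log2 2.49), both known from myeloid leukemia. Hoxb2, too low to test, went the other way, with 9 counts over the WT libraries and 0 over the NHD13 libraries. Of the developmental and cell cycle loci other than Hox that are known as Polycomb targets, 20 of 42 had a row, and they summed to 2.45 to 3.05 CPM in WT and to 1.52 to 2.48 CPM in NHD13. Most of that difference came from Eomes, a T-box gene of early development and lymphocytes, with 34 counts over the WT libraries and 6 over the NHD13 libraries. Only Gbx2, a homeobox gene, was abundant enough to test (43 counts in each group, log2 -0.06, interval -0.70 to 0.59, edgeR adjusted p = 0.900). Cdkn2a, the cell cycle inhibitor locus that Polycomb proteins silence in stem cells, had 1 count in WT and 0 in NHD13, which allows up to 0.0709 CPM at 3 counts over the NHD13 group, and Cdkn2b had 1 count in each group.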

How the data were processed

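The authors deposited raw counts per gene and library, which are not normalised. Bowtie2 2.2.1, HTSeq 0.5.4p3 and the build mm10 are named in the submitters' processing notes; the annotation, the strand setting and any read filter were not given in the sources used here. The 6 columns were matched to samples by group letter and replicate number, and every pair of libraries differed by more than counting error (chi-square per degree of freedom at least 3.23). All 12013 genes kept by filterByExpr (minimum count 10) were fitted in edgeR 4.0.16 (R 4.3.3) with TMM scaling and the quasi-likelihood test, two-sided, with Benjamini-Hochberg adjustment over all of them at 0.05. The SE is the log2 change over the square root of F; intervals are 95% and use the t quantile of the fit's degrees of freedom. Ratios were taken within libraries and tested by exact permutation. Positions, exon lengths and overlaps are those of GENCODE vM21 on GRCm38, the assembly also called mm10, and start regions those of RefSeq; 16335 table symbols matched directly and 975 through an older symbol. The PRC2 genes and the gene lists were chosen with earlier results of these data known. The genes named are all 10 PRC2 genes, other PRC2 partners and demethylases, and up to 4 genes of the lowest p in each further list. Others (Kit, Slamf1, Procr, Xist, Ly6a, Hoxb2, Hoxb4, Pcgf2, Sap30, Eomes, Cdkn2a and Cdkn2b) were named with their values known. Alternatives were other scalings, no filter, DESeq2 1.42.0, limma-voom (limma 3.58.1), a replicate block, a Y-linked covariate and left-out libraries. The erythroid markers are reported here in part. The count floor covers counting error only.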

Additional observations from a re-analysis of the deposited data

How the results depend on the processing

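The number of PRC2 genes past the threshold was small and depended on the analysis. edgeR with DESeq2 size factors and limma-voom gave 1 higher and 1 lower, as edgeR with TMM did. The count of higher genes was 0 with upper-quartile factors or library totals, where the count of lower genes was 1, and DESeq2 gave 1 higher and 0 lower. Both counts were 0 without the low-count filter (3 higher and 1 lower at an unadjusted p under 0.05) and 0 with a covariate for Y-linked RNA (0 and 0 unadjusted), a fit in which 2.38% of all tested genes passed. Without replicate 1 of both groups there were 4 higher (Ezh2, Eed, Suz12 and Jarid2) and 2 lower (Mtf2 and Phf19), and 53.3% of all tested genes passed. Leaving out 1 library gave 0 to 3 higher and 0 to 2 lower genes. With the replicate number as a block both counts were 0 (3 higher and 1 lower at an unadjusted p under 0.05; Ezh2 adjusted p = 0.0541, Phf19 adjusted p = 0.0536), while 35.3% of all tested genes passed. The numbers share no stated origin: deviations of same-numbered libraries correlated at 0.25, 0.063 and 0.17, and NHD13 replicate 2 correlated best with WT replicate 3.

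Directions changed sign only for genes near 0: with 1 library left out Ezh1 ranged from -0.093 to 0.023 and Phf1 from -0.16 to 0.058, both turning positive without WT replicate 2, Rbbp4 was at 0.0092 with the Y-linked covariate, and Phf1 at 0.19 with it. The other 7 genes kept their direction in all 15 alternatives. The 4 ratios kept their direction and moved by less than the larger of the groups' SDs. With 3 libraries a group, a permutation test of a single ratio cannot pass 0.05.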
